A study of Mus musculus with 24 samples.

Results

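The 3′ untranslated regions (3′ UTRs) of Inpp5d, Rheb, Rictor and Rps6ka3, genes of the PI3K-mTOR and ERK signalling network of T cells, held 41 of the 14634 Argonaute 2 (AGO2) peaks in the authors' deposited table. The members were chosen by gene symbol: every peak listed under these 4 names was taken, which gave 2 peaks in Inpp5d, 3 in Rheb, 32 in Rictor and 4 in Rps6ka3. The libraries came from CD4+ T cells of the spleen and lymph nodes of C57BL/6 mice, 12 libraries from miR-155 KO cells and 12 from WT cells, both activated in culture for 4 days with antibodies to CD3 and CD28 at 1 µg/mL and with IL-2 at 20 U/mL. AGO2 was immunoprecipitated after partial RNase digestion and the RNA bound to it was sequenced (HITS-CLIP), which locates the stretches of messenger RNA where AGO2 and its microRNA sit. Each genotype had 6 libraries with either 3′ linker; among replicate numbers 1 to 6 all KO libraries carried linker 1 and all WT libraries linker 2, and the pooled columns do not separate the linkers. The comparison of the genotypes addresses where in these 3′ UTRs AGO2 reads differ between cells with and without miR-155.

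Read values are the authors' scaled reads, in which the 12 libraries of each genotype are pooled, so there is no value per library and no replicate error, and the depth of each library is unknown. Whether a replicate was a mouse or a culture is not stated. Over all peaks they summed to 374126 in KO and 371088 in WT cells. Peaks were listed for all 8 markers of activated CD4+ T cells that were looked up (Cd4, Cd3e, Cd3d, Cd3g, Cd28, Il2ra, Cd69 and Icos), with 9319 scaled reads in KO and 7366 in WT cells, and for 0 of 13 markers of B cells, myeloid cells, CD8 T cells and NK cells. These marker counts are of AGO2 peaks, which 4165 genes had, so a marker without a peak may still be expressed. The table holds no messenger RNA levels. Less AGO2 on each transcript, less transcript per cell and fewer cells with the transcript therefore cannot be told apart.

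PI3K makes the membrane lipid PIP3, which recruits and activates the kinase AKT, and AKT in turn releases the kinase mTOR from inhibition. Inpp5d encodes SHIP1, a phosphatase of blood cells that removes a phosphate from PIP3 and so limits the pathway. Rheb encodes the small GTPase that switches on mTOR complex 1, and Rictor encodes the defining subunit of mTOR complex 2, which phosphorylates AKT. Rps6ka3 encodes RSK2, a kinase activated by ERK. miR-155 is a microRNA induced in activated lymphocytes, and AGO2 loaded with it pairs mainly through its seed, bases 2 to 8.

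The seed match under AGO2 differed in kind between Inpp5d, Rheb and Rps6ka3, and the Rictor 3′ UTR carried its match outside every peak. The mature miR-155 sequence (RefSeq, GRCm38.p6) is given first, 5′ to 3′ with the seed in capitals, and below it stand 30-nt windows of the peaks, sense strand, with the match in capitals. The Inpp5d window is an 8mer at chr1:87719818-87719847 (plus strand), the Rheb window a 7mer-A1 at chr5:24803391-24803420 (minus strand) and the Rps6ka3 window a 7mer-m8 at chrX:159363762-159363791 (plus strand). The Rictor window, a 7mer-A1 at chr15:6800309-6800338 (plus strand), comes from the GENCODE transcript and not from a peak. All positions are on GRCm38.
mmu-miR-155-5p: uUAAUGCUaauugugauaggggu
Inpp5d peak 2: gtcctgagatgtttttaaaaAGCATTAAag
Rheb peak 1: tatgaccaagaattttatcgGCATTAAttt
Rps6ka3 peak 3: aaaagtactctacaccatatAGCATTAttt
Rictor, no peak: gtgtacagtttatgttaaggGCATTAAagc

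AGO2 reads were called lower without miR-155 at 1 position in each of Inpp5d, Rheb and Rps6ka3 and at none of the 32 positions in Rictor. With the authors' p-values after Benjamini-Hochberg adjustment across the 14634 peaks (threshold 0.05), 3 of the 41 peaks were lower in KO cells and 0 were higher. In the whole set of peaks 0.601% were called, 0.574% lower in KO and 0.0273% higher. By gene, 3 of the 4 had a lowered peak, against 1.9% of the 4165 genes with peaks (79 genes), and 0 had a raised peak, against 0.096%. These genes were picked with such results known, so their share is a description. The 3 lowered peaks were also the only 3 of the 41 with a miR-155 match of 7 or 8 nt. Of all 265 peaks with such a match 22.3% were called lower in KO, and of the 14369 peaks without it 0.174%.

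In Inpp5d the smaller of its 2 peaks was lower in KO. Peak 2, with the 8mer, was listed at 0 scaled reads in KO cells and held 31.0 in WT cells (p = 6.92e-07 in the authors' deposited table, Benjamini-Hochberg adjusted p = 0.000225). No fold is given, because KO is listed at 0. This was the case for 16.6% of all peaks and for 4.66% of those with at least 10 scaled reads. Peak 1, which ends 66 nt upstream of it and holds no miR-155 match, had 66.6 scaled reads in KO and 92.7 in WT (p = 0.189, adjusted p = 1.00). The KO value was thus 71.9% of the WT value at peak 1, while no KO reads were listed at peak 2. Both peaks lie in the last of 27 exons of the transcript Inpp5d-201, whose annotated 3′ UTR is 1180 nt long. Peak 2 starts 486 nt into that 3′ UTR (1011 nt by the authors' transcript ENSMUST00000072999, whose 3′ UTR starts earlier).

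In Rheb the lowered peak lay next to the most-read peak of the 4 genes. Peak 1, with the 7mer-A1, held 12.6 scaled reads in KO and 128 in WT, so the KO value was 9.82% of the WT value (log2 difference KO minus WT -3.25, with 1 added to the reads). The authors' deposited table gives p = 8.43e-10 (adjusted p = 4.57e-07). Peak 2 begins 27 nt further downstream and had 112 scaled reads in KO and 210.3 in WT (log2 difference -0.91, adjusted p = 1.00). Peak 3, which begins 84 nt downstream of peak 1, had 126 in KO and 101 in WT (log2 difference 0.32, adjusted p = 1.00). The difference between the genotypes thus passed the test at the position with the seed match and not at the neighbours. Of these, peak 2 was lower in the pooled KO reads, as peak 1 was, and peak 3 was higher. The 3 peaks span nt 249 to 408 of an 841-nt 3′ UTR in the last of 8 exons, and the distal part of that 3′ UTR held none.

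Rps6ka3 had few KO reads anywhere in its 3′ UTR. Peak 3, with the 7mer-m8, held 4.51 scaled reads in KO and 79.8 in WT (KO 5.65% of WT; log2 difference -3.88). Its p was 7.11e-08 in the authors' deposited table (adjusted p = 2.89e-05). The other 3 peaks were all listed at 0 in KO. Peak 1 held 9.35 scaled reads in WT, peak 2 held 6.89 and peak 4 held 9.67, and none passed the test (p = 0.126, 0.0836 and 0.183, adjusted p = 1.00 each). Peaks 1 and 2 lie 66 and 32 nt upstream of peak 3, and peak 4 lies 1024 nt downstream. Peak 4 holds the shorter 6mer-A1 match (CATTAA) and no longer one. Of all peaks 1.68% had this as their longest match, and of these 0.813% were called lower in KO. Unlike in Rheb and Inpp5d, no peak of this gene kept most of its reads in KO, but its 3 uncalled peaks each held under 10 scaled reads. Of all peaks 16.6% were listed at 0 in KO, and of those with at least 10 scaled reads 4.66%. Zeros were thus more frequent among less-read peaks, and the uncalled peaks of Rheb and Inpp5d were better read. All 4 peaks are in the last of 22 exons, and by the authors' positions in the first 1390 nt of a 3′ UTR that is 4759 nt long in GENCODE.

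**Figure D1:**
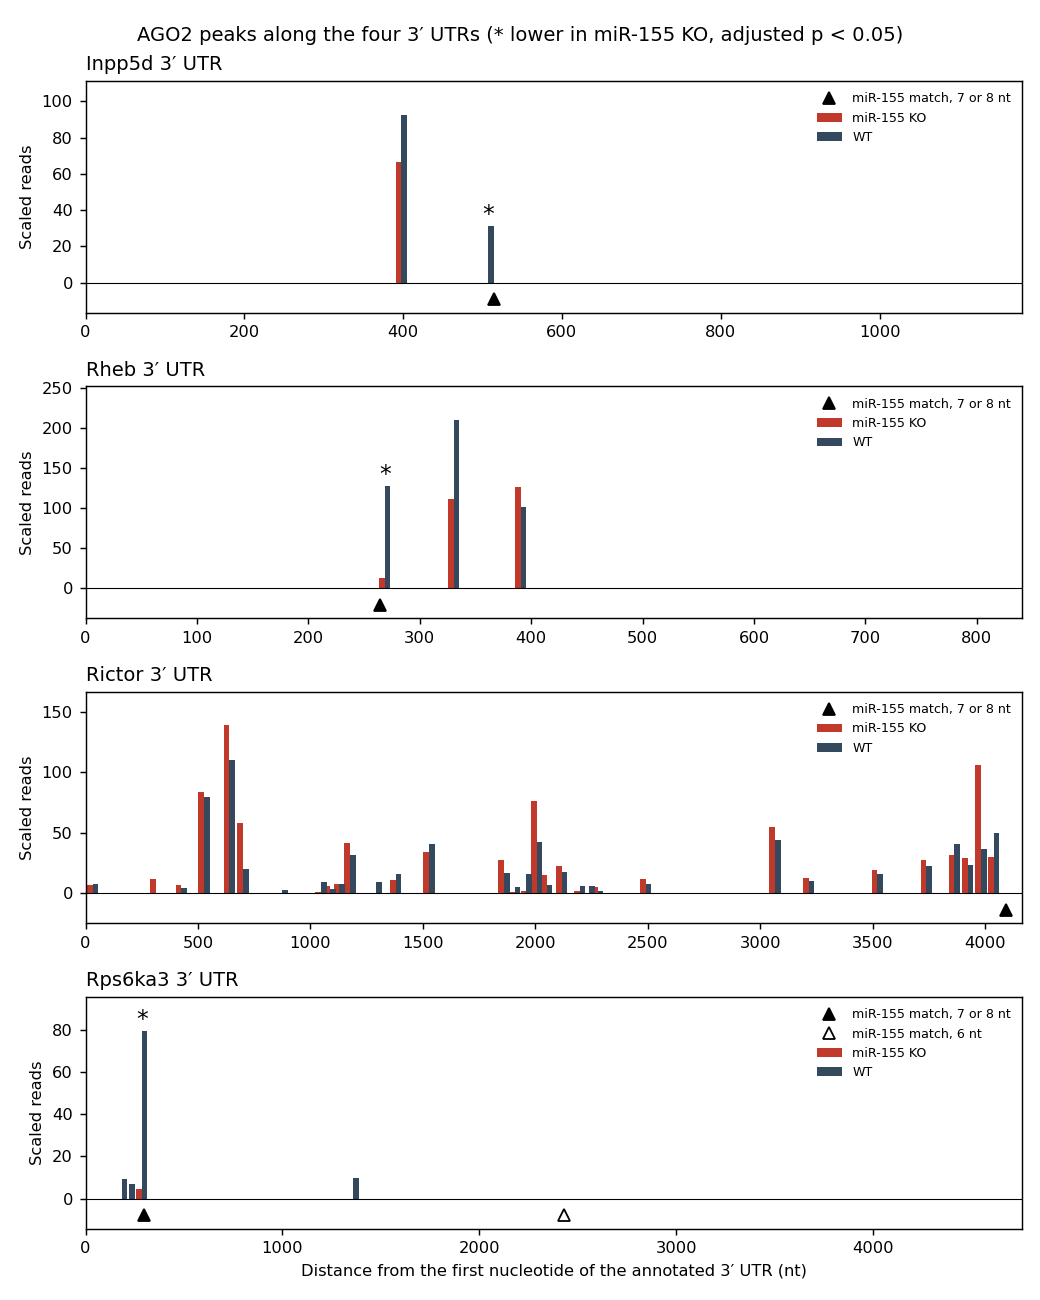
Pooled scaled reads of every AGO2 peak (vertical axes) against distance from the start of the annotated 3′ UTR in nt (horizontal axes), with miR-155 KO in red and WT in dark blue; asterisks mark the 3 peaks called lower in KO and triangles the miR-155 matches. Each asterisk stands over a filled triangle, while the filled triangle of Rictor lies to the right of its last peak.

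Rictor had many AGO2 peaks and no call in either direction. Its 32 peaks placed it at rank 7 of 4165 genes by number of peaks and at rank 62 by summed reads; the median gene had 2 peaks. Per 1000 nt of 3′ UTR it held 7.68 peaks, against 1.69 in Inpp5d, 3.57 in Rheb and 0.841 in Rps6ka3. On the same per-length scale Rheb held the most scaled reads, 297 in KO and 522 in WT, and Rictor held 212 in KO and 171 in WT. Inpp5d held 56.5 per 1000 nt in KO and 105 in WT, and Rps6ka3 held 0.947 in KO and 22.2 in WT. Values per length depend on the transcript chosen: another Rps6ka3 transcript, with a 3′ UTR of 1017 nt, holds 3 of its 4 peaks. For Inpp5d the 1180-nt 3′ UTR of Inpp5d-201 was used. Its values per length would be lower over the 1706-nt 3′ UTR of the authors' transcript. The Rictor peaks covered 28.9% of its 4165-nt 3′ UTR, with gaps of 10 to 518 nt between neighbours (median 43). Of the 32 peaks 19 were higher in KO and 13 lower, with a median log2 difference of 0.28, beside -0.20 over all 14634 peaks, of which 43.3% were higher in KO. Among the 25 with at least 10 scaled reads 17 were higher in KO and 8 lower (median 0.30, against -0.09 over the 9904 such peaks of the table).

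The most-read Rictor peak was peak 5, with 139 scaled reads in KO and 110.4 in WT (p = 0.586). Peak 4 followed with 83.4 in KO and 79.9 in WT (p = 0.730). The log2 difference was 0.33 at peak 5 and 0.06 at peak 4. The largest differences among the better-read peaks were towards KO: peak 31 had 106 scaled reads in KO and 36.9 in WT, and peak 6 had 57.8 in KO and 19.7 in WT. Their log2 differences were 1.49 and 1.51, yet the authors' p-values were 0.609 and 0.953, so a near 3-fold pooled difference carried no call. Peak 17 had the only unadjusted p below 0.05 among the Rictor peaks, with 2.20 scaled reads in KO and 15.97 in WT (p = 0.0490, adjusted p = 1.00; 4.2% of all peaks had an unadjusted p below 0.05). Peaks 7, 12 and 22 were listed at 0 in KO, with 2.36, 9.19 and 5.58 scaled reads in WT, and peak 2 was listed at 0 in WT with 11.8 in KO. The remaining peaks had log2 differences from -2.38 (peak 8) to 1.29 (peak 23), while the whole gene spanned -3.35 (peak 12) to 3.68 (peak 2).

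Rictor reads were also compared by stretch of the 3′ UTR. In the first 1000 nt, 7 peaks summed to 306 scaled reads in KO and 225 in WT. The next 1000 nt held 11 peaks with 208 in KO and 198 in WT. The third 1000 nt held 6 peaks with 57.1 in KO and 44.5 in WT, and the last stretch held 8 peaks with 311 in KO and 244 in WT. The KO sum was above the WT sum in all 4 stretches, by values with no test. By peak, 5 were higher in KO and 2 lower in the first stretch, and 4 higher and 7 lower in the second. The third had 4 higher and 2 lower, and the last 6 higher and 2 lower. Single peaks weighed heavily in the sums: peak 18 in the second stretch (76.3 in KO and 42.3 in WT) and peak 31 in the last (106 and 36.9). Of the summed reads of the gene 48.5% lay in its 5 most-read peaks.

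**Figure D2:**
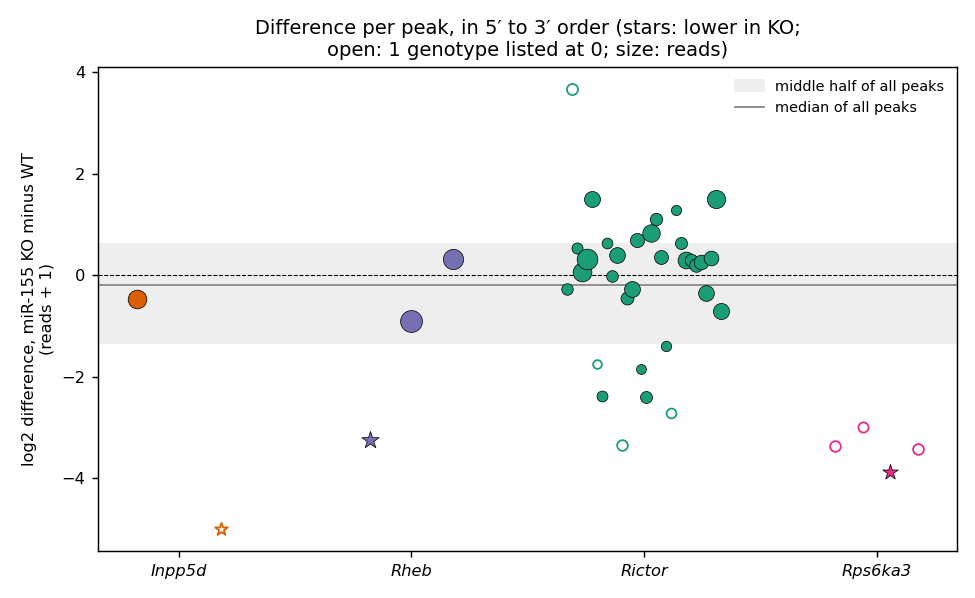
Log2 difference of miR-155 KO minus WT, with 1 added to the scaled reads (vertical axis), for each of the 41 peaks, grouped by gene and in 5′ to 3′ order; stars are peaks called lower in KO, open symbols have a genotype listed at 0, and the area grows with reads. The grey band spans the quartiles of all 14634 peaks (-1.33 to 0.61); most Rictor peaks lie in or above it, and the 4 Rps6ka3 peaks lie below it.

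Whole 3′ UTRs were searched for miR-155 matches to see which of them AGO2 peaks covered. Each of the 4 annotated 3′ UTRs held 1 match of 7 or 8 nt. For Inpp5d the 1180-nt 3′ UTR of Inpp5d-201 was searched, and not the earlier part of the 1706-nt 3′ UTR of the authors' transcript. Those of Inpp5d, Rheb and Rps6ka3 lay inside a lowered peak. That of Rictor, at nt 4093 to 4099 and 66 nt before the annotated end, lay 39 nt beyond its last peak, peak 32 (30.1 scaled reads in KO and 49.9 in WT, adjusted p = 1.00). Rps6ka3 held a further 6mer (GCATTA) at nt 2428, 1037 nt from the nearest peak. No Rictor peak held even a 6-nt match of any class, and 2 of them, peaks 11 and 12, held the 7mer-m8 with 1 mismatch, as 6.97% of all peaks did. Peak 11 had 41.4 scaled reads in KO and 31.3 in WT (p = 0.988), and peak 12 was listed at 0 in KO and had 9.19 in WT (p = 0.291).

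The classes were searched on the sense strand as AGCATTAA (8mer), AGCATTA (7mer-m8), GCATTAA (7mer-A1), GCATTA (6mer), AGCATT (offset 6mer) and CATTAA (6mer-A1), each peak being counted in the longest class it held. Of all peaks 0.458% held the 8mer found in Inpp5d, 0.642% the 7mer-m8 found in Rps6ka3 and 0.711% the 7mer-A1 found in Rheb. Peaks of these classes were called lower in KO in 31.3%, 18.1% and 20.2% of cases. The base composition around the 3 sites was set beside that of other sites. Within 15 nt on either side, as far as the peak sequence reached, A and T made up 70.4% in Inpp5d, 70.0% in Rheb and 78.3% in Rps6ka3, beside a median of 66.7% over the 265 peaks with such a match (quartiles 57.7 and 72.4) and of 70% over the 59 of them that were called lower in KO. Predicted pairing of the whole microRNA with the peak was strongest in Rps6ka3, at -16.7 kcal/mol with 11 paired bases beyond base 8. It was -11.1 kcal/mol with 12 such bases in Inpp5d and -10 kcal/mol with 5 in Rheb; the median over the 265 was -12.3 (quartiles -14.5 and -10.4). The Rheb site, with the weakest prediction and the least pairing outside the seed, was the best read of the 3 in WT and had the smallest p.

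Peaks of 3 of the genes also held sites of other microRNAs of T cells. Of 15 families searched for 7-nt and 8-nt matches, 8 occurred in the 41 peaks, in 12 peaks: 10 of Rictor, 1 of Rheb and 1 of Rps6ka3. Of all 14634 peaks 33.7% held such a site. The miR-142-3p match (ACACTAC), for a microRNA abundant in blood cells, occurred in 4 of the 41 peaks and in 2.94% of all peaks, and in Rictor peak 15 it overlaps a let-7 8mer by 4 nt. The windows below show it in capitals (in Rictor peak 15 the capitals cover both matches), with the mature sequences from RefSeq and the seeds in capitals. The windows lie at chr5:24803320-24803349 (minus strand), chr15:6796748-6796777, chr15:6798079-6798108 and chrX:159364815-159364844 (plus strand) of GRCm38.
mmu-miR-142a-3p: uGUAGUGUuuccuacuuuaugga
mmu-let-7a-5p: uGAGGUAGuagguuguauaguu
Rheb peak 2: atgatacacatgttACACTACtattaacta
Rictor peak 4: tcttaatgtctgtaACACTACttcagaggt
Rictor peak 15: gacattcattttaaACACTACCTCAgttaa
Rps6ka3 peak 4: cccatatctttgtcACACTACccagtatac

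These miR-142-3p peaks did not share a direction. Rheb peak 2 and Rps6ka3 peak 4, with values given above, were lower in the pooled KO reads. Rictor peak 4 was nearly level and Rictor peak 15 had 27.3 scaled reads in KO and 16.5 in WT (p = 0.814). None passed the test. The other family sites of Rictor were a match to miR-92a in peaks 5 and 26, a miR-19 match in peaks 12 and 27, and single matches of miR-30 (peak 7), miR-27 (peak 24), miR-29 (peak 25) and miR-15/16 (peak 29). The miR-27 8mer in peak 24 had 11.9 scaled reads in KO and 7.24 in WT (p = 0.275), and the miR-15/16 match in peak 29 had 31.6 in KO and 40.4 in WT (p = 0.895).

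Summed over each gene, AGO2 reads were lower in KO for Inpp5d, Rheb and Rps6ka3 and higher for Rictor. Rictor summed to 881 scaled reads in KO and 711 in WT (KO 124% of WT). Rheb summed to 250.0 in KO and 439 in WT, of which the lowered peak held 5.03% in KO and 29.2% in WT. Without that peak, Rheb kept 237 in KO and 311 in WT (76.3%). Inpp5d summed to 66.6 in KO and 124 in WT, and the uncalled peak 1 held 92.7 of the WT reads. Rps6ka3 summed to 4.51 in KO and 106 in WT; 75.5% of the WT reads lay in the lowered peak, and the other 3 peaks together held 0 in KO and 25.9 in WT. These sums are pooled values with no error and no test.

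**Figure D3:**
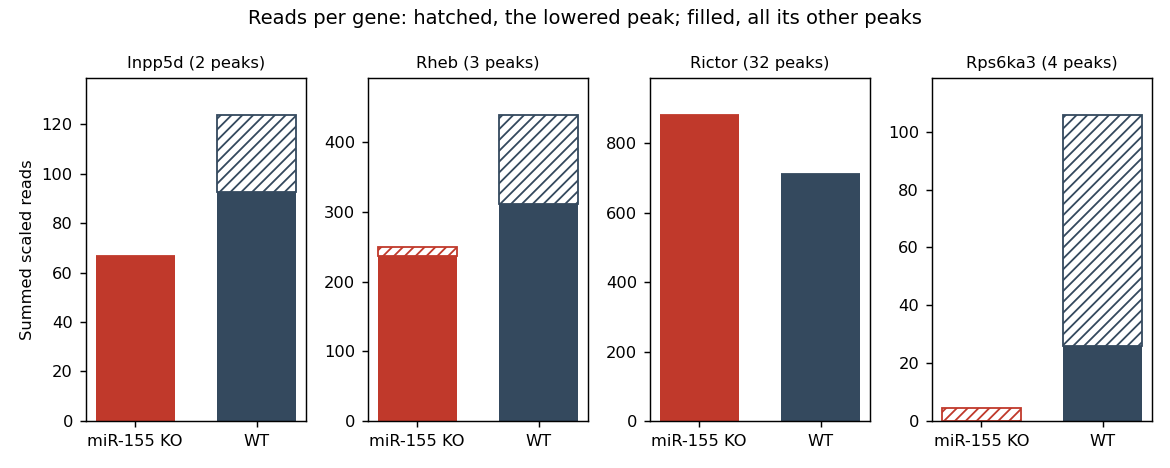
Summed scaled reads per gene (vertical axes, scaled to each gene) in miR-155 KO (left bars) and WT (right bars), with the lowered peak hatched and all other peaks filled. The hatched part is 29.2% of the WT bar in Rheb and 75.5% in Rps6ka3, and Rictor has no hatched part.

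Of the peaks of other genes nearest in pooled reads, some were called and some were not. For each lowered peak the 3 peaks of other genes nearest to it by Euclidean distance over the log2 reads of KO and WT were taken, a likeness over only 2 pooled values. Nearest to Inpp5d peak 2 were Smek2 peak 3 (0 scaled reads in KO and 31.0 in WT, adjusted p = 0.400), Dcp1a peak 2 (0 in KO and 30.6 in WT, adjusted p = 0.992) and Srp68 peak 1 (0 in KO and 31.5 in WT, adjusted p = 0.00155). Srp68 held a 7mer-A1 miR-155 match, while the Smek2 and Dcp1a peaks held none. Nearest to Rheb peak 1 were Rnf6 peak 8 (13.9 in KO and 162 in WT, adjusted p = 0.000176), Ncapd3 peak 2 (13.3 in KO and 90.7 in WT, adjusted p = 0.254) and Hif1a peak 4 (8.85 in KO and 146 in WT, adjusted p = 4.17e-26). Nearest to Rps6ka3 peak 3 were Zfp654 peak 5 (4.43 in KO and 82.1 in WT, adjusted p = 5.58e-11), Zc3h11a peak 7 (4.27 in KO and 75.7 in WT, adjusted p = 0.00162) and Foxk1 peak 1 (5.23 in KO and 69.3 in WT, adjusted p = 1.00). In all, 5 of these 9 peaks were called lower in KO, beside 0.574% of all peaks. The 9 were picked for reads like those of peaks already called lower, so the higher share follows from that choice and is no enrichment. The adjusted p of the 9 ranged from 4.17e-26 to 1.00. Of the 5 called peaks Srp68 peak 1 and Rnf6 peak 8 held a 7mer-A1 and Zfp654 peak 5 a 7mer-m8. Hif1a peak 4 held the 6mer-A1, and Zc3h11a peak 7 held no miR-155 match of any class. Among the uncalled peaks Ncapd3 peak 2 held the 6mer-A1, and those of Smek2, Dcp1a and Foxk1 held no match.

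**Figure D4:**
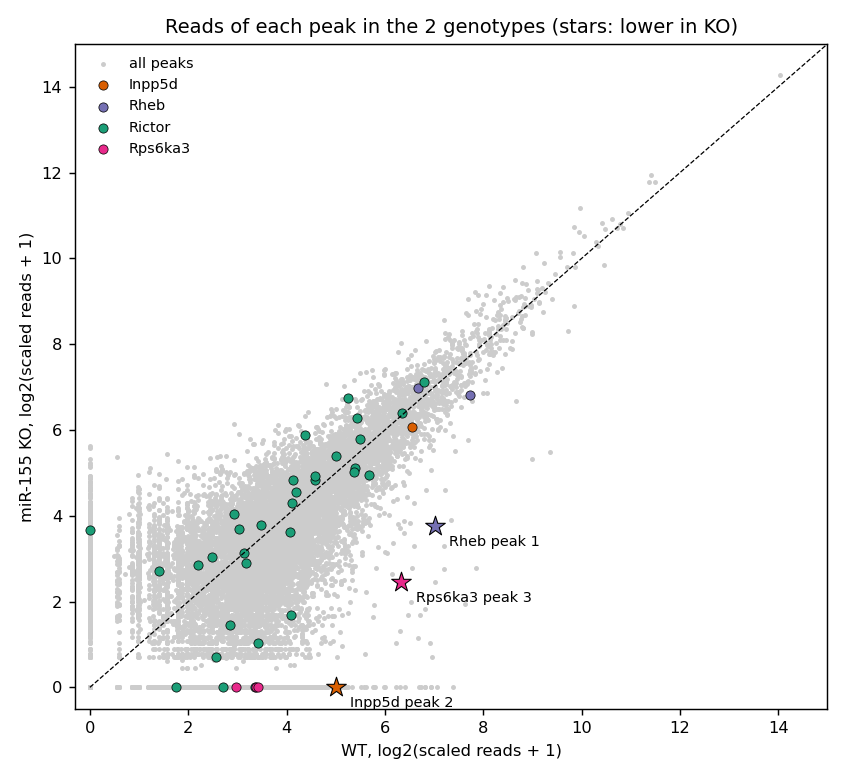
Log2 of scaled reads plus 1 in miR-155 KO (vertical axis) against WT (horizontal axis) for all 14634 peaks (grey) and the 41 peaks of the 4 genes (coloured); stars are the lowered peaks and the dashed line marks equal values. The 3 stars lie far below the line, with Inpp5d peak 2 at 0 in KO, and the Rictor peaks lie on both sides of it.

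Other genes of the pathway had peaks and no call. In a list of 69 further PI3K-AKT-mTOR genes, 35 had peaks, 160 in all, and 0 had a peak lower or higher in KO at an adjusted p below 0.05; at an unadjusted p below 0.05 by the authors' deposited values, 2 peaks were lower in KO and 0 higher. Of all peaks 0.601% were called and 4.2% had an unadjusted p below 0.05, and 1.9% of all genes had a lowered peak, so 0 calls is near the background for a list of this size. The median log2 difference of the 160 was -0.18, beside -0.20 over all peaks. Peaks were listed for 6 of 11 PI3K subunit and adaptor genes and 7 of 10 genes of lipid or inositol phosphate phosphatases. They were also listed for 5 of 9 genes of AKT, SGK kinases and AKT regulators, and 2 of 4 of the TSC and RHEB group. Of the 8 other mTOR complex genes only Akt1s1, an inhibitor of mTOR complex 1, had peaks, with 123 scaled reads in KO and 150 in WT. The nutrient and stress inputs had 8 of 11 genes with peaks, led by Ddit4, a stress-induced inhibitor of mTOR complex 1, with 724 in KO and 645 in WT. The S6 kinase, RSK and effector group had 6 of 16.

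Within that list a 7-nt or 8-nt miR-155 match occurred in 2 peaks, both of kinase genes. Gsk3b, a kinase inhibited by AKT, had 13.3 scaled reads in KO and 32.0 in WT at its 7mer-A1 (peak 8; log2 difference -1.21, adjusted p = 1.00). Rps6ka5, which encodes the RSK relative MSK1, had an 8mer in peak 6, with 3.17 in KO and 4.45 in WT (adjusted p = 1.00). The peaks with the unadjusted p below 0.05 were Gsk3b peak 1 (0 in KO and 12.8 in WT, p = 0.0153) and Pik3ca peak 1 (7.78 in KO and 21.6 in WT, p = 0.0367), neither with a miR-155 match.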

How the data were processed

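AGO2 HITS-CLIP was done on 12 miR-155 KO and 12 WT libraries, labelled biological replicates. Bowtie 0.12.7 and the mm9 genome are named in the submitters' processing notes; peak calling, read scaling, duplicate removal and the statistical test remain not given in the sources used here. Deposited log2 values are, per the file headers, reads by genotype and their ratio, WT over KO, and a deposited p-value describes differential binding. The log2 values were taken as log2(scaled reads + 1), an assumption no source states, and turned back into scaled reads. Differences here are KO minus WT and equal the deposited ratio with its sign turned, to within 6e-05. Pooling prevented the planned test per library.

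Benjamini-Hochberg adjustment of the p-values covered 14634 peaks (threshold 0.05) and was checked on simulated data. The deposited sequences include 6 flanking nt at either end in 14608 peaks. Seed matches were searched in them on the sense strand; of 16 planned families, miR-150 was not searched. Sequences were placed on GRCm38 by exact match to GENCODE M21 transcripts (41 of 41), not on mm9. Pairing energies are from RNAduplex 2.7.2, with Python 3.11.15. The genes, lists and tests were chosen with earlier results of these data known. Peaks were named by rule: the called, miR-155 matching and most-read peaks of the 4 genes, peaks of the pathway list that were called or held a 7-nt or 8-nt miR-155 match with at least 10 scaled reads, and the nearest peaks. Rps6ka5, Pik3ca, Akt1s1, Ddit4, peak 1 of Gsk3b and further Rictor peaks were picked with their values in view. The alternatives were other thresholds, adjustments, pseudocounts, read minimums and site definitions.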

Additional observations from a re-analysis of the deposited data

How the results depend on the processing

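The same 3 peaks were lower in KO at adjusted p thresholds of 0.01 and 0.1, after Bonferroni adjustment, and with the adjustment over peaks with at least 10 scaled reads. Among peaks with reads in both genotypes 2 remained, Rheb peak 1 and Rps6ka3 peak 3; Inpp5d peak 2 is listed at 0 in KO and leaves that set by construction. With a pseudocount of 5 the log2 differences were -2.85 for Inpp5d peak 2, -2.92 for Rheb peak 1 and -3.16 for Rps6ka3 peak 3, so their order depends on it. Without a pseudocount they were -3.35 for Rheb and -4.15 for Rps6ka3. Centring on the median of all peaks, -0.20, reversed none of them. The gene sum of Rictor was 0.31 on the log2 scale and 0.36 over peaks with at least 10 scaled reads. The 3 miR-155 matches lie within the peaks without flanks, and counting the 6mer (GCATTA) too gave 3 peaks again. With the offset 6mer and 6mer-A1 as well, a choice made after seeing the data, there were 4, the fourth being Rps6ka3 peak 4. The pathway list had 0 called peaks at 0.01 and 0.1. No paired analysis was possible because the deposited table pools the libraries of each genotype. For the same reason no library could be left out, and depth per library, which sets what a listed 0 allows, is unknown.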

Other observations

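Further sequence elements of the 41 peaks were near their share in the table. The polyadenylation hexamer AATAAA was present in 4 of them (Rheb peak 3, Rictor peak 26 and Rps6ka3 peaks 2 and 3) and in 9.57% of all peaks. The AU-rich pentamer ATTTA was present in 3, all in Rictor, and in 11.6% of all peaks, and the Pumilio motif TGTANATA in 2 (Rheb peak 3 and Rictor peak 11) and in 3.70% of all peaks. Of the 3 peaks lower in KO, Rps6ka3 peak 3 held AATAAA and none held ATTTA or the Pumilio motif. A motif match is not a site in use. All were searched on the sense strand.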
